A study of Mus musculus with 36 samples.

Results

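The p53 target set described here held 32 genes: Trp53, the gene of p53 itself, and 31 genes known as transcriptional targets of p53. They were chosen by symbol with earlier results of these data known. Each symbol matched 1 Ensembl gene of the 46078 in the deposited count table. Levels were read in 36 BRB-seq libraries, in which polyadenylated RNA is counted from the 3′ end after each sample has been given its own barcode. The cells were transformed mouse astrocytes of the genotype Nf1-/- DNp53, meaning that the gene for neurofibromin was lost and a dominant-negative p53 was carried, grown in DMEM/F12 with 10% fetal bovine serum. The labels gave each library a lot (6, 7, 8, 11 or 12), a sex and a replicate number, which made 10 lines: lot 6 female, lot 6 male, lot 7 female, lot 7 male, lot 8 female, lot 8 male, lot 11 female, lot 11 male, lot 12 female and lot 12 male. Each line of lots 6 and 12 had 3 libraries and each line of lots 7, 8 and 11 had 4. All 10 lines had the same genotype label, and no line with intact p53 entered the comparisons, so levels could be compared among lines but not against a p53-proficient state. There was 1 line for each sex of a lot, so within a lot the sex and the line cannot be told apart. The labels do not describe the dominant-negative construct, so whether its transcript is counted within Trp53 is not known.

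p53 is a transcription factor that is held at a low level by the ubiquitin ligase Mdm2 and is stabilised by DNA damage and other stress. Once stable it binds DNA as a tetramer and raises genes that arrest the cell cycle, repair DNA, adjust metabolism or start cell death, among them Mdm2, which closes a negative feedback loop. A dominant-negative p53 forms mixed tetramers with the normal protein and lowers its binding to such genes. Astrocytes that lack neurofibromin and p53 function are used as a model of malignant glioma.

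Library totals ran from 4358098 to 7562901 counts (median 6061120), so that 3 counts, taken as the floor of detection, stood for 0.397 to 0.688 CPM (a gene's counts scaled to a common library total). The 6 libraries with replicate number 4 stood apart, with 0.251 to 0.349% of their counts from mitochondrial mRNA against 0.461 to 0.775% in the other 30, and calls on members that were lost without them are named beside the result. Of 12 astrocyte markers, 6 had a mean over 1 CPM, led by Vim, Gja1, Sox9 and Glul, while Gfap and Aqp4 did not pass 0.716 CPM in any line. Smooth muscle markers summed to between 1853 CPM in the lot 7 male line and 19773 CPM in the lot 6 female line. Acta2, Tagln and Cnn1 made up nearly all of these sums. Myh11 and Des did not pass 0.849 and 0.0933 CPM in any line. Fibroblast markers summed to between 49.0 and 798 CPM, led by Col1a2. Dcn and Pdgfra had means of 0.435 and 0.319 CPM, and Lum was at 0. Microglia and macrophage markers summed to 2.46 to 11.3 CPM, neuron markers to 8.36 to 57.4 CPM with Rbfox3 and Snap25 at 0, and oligodendrocyte and endothelial markers to below 0.5 CPM.

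The DNA element that p53 reads is made of a pair of 10-base copies, each a p53 half-site, separated by 0 to 13 bases. RefSeq promoter windows of the GRCm38.p6 build, from 250 bases before to 50 bases after a start site, were at hand for 24 of the 32 members. A half-site was present in at least 1 window of 11 of these 24 members (45.8%), against 9.55% of 27025 genes in the same table. The search pattern reads the same on both strands, and a match describes letters in this window, not a bound site. The stretches below are those of 5 members whose levels are described further on, each 5′ to 3′ on the strand of its gene and upstream of its start, with the half-sites in capitals.
Cdkn1a: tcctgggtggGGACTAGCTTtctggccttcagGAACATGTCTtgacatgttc
Mdm2: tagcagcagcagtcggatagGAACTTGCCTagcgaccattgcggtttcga
Ccng1: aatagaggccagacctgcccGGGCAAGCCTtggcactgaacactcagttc
Bax: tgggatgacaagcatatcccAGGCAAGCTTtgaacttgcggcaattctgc
Trp53: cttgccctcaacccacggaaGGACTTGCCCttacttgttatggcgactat

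The Cdkn1a stretch lies at chr17:29090896-29090947 on the plus strand and holds 2 half-sites with 12 bases between them. Cdkn1a was the 1 member, and 1 of 20 genes in the table (0.074%), with such a spaced pair. Only exact matches were counted. The 10 bases directly after its second half-site miss the pattern at 1 base, their first, and so stay in lower case. Which of these copies p53 reads was not tested. A second Cdkn1a window, chr17:29093519-29093818, held no match. The Mdm2 stretch lies at chr10:117710915-117710964 on the minus strand. The Ccng1 stretch lies at chr11:40755442-40755491 on the minus strand and that of Bax at chr7:45467070-45467119, also on the minus strand. Trp53 itself had a half-site at chr11:69580264-69580313 on the plus strand. Windows of Plk2, Btg2, Fas and Dram1, which also varied among the lines, held no match, and Perp, Tnfrsf10b and Zmat3 had no entry.

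Every member had at least 1 count, but Ddb2 had 12 counts in all and was at 0 in 32 of 36 libraries, and Trp53inp1 had 40 counts and was at 0 in 25. Both fell below the expression filter, and the other 30 members were tested. Among the 10 lines, 18 of the 30 differed at an adjusted p under 0.05 by edgeR's quasi-likelihood test, where 51.8% of all 12173 genes tested did. The 18 were Trp53, Cdkn1a, Mdm2, Ccng1, Perp, Plk2, Bax, Pmaip1, Btg2, Zmat3, Ei24, Polk, Rrm2b, Tnfrsf10b, Fas, Gdf15, Tigar and Dram1. The share of members was thus close to that of genes in general. Ei24 and Rrm2b lost their call under many omissions of 1 library, with adjusted p up to 0.0832 and 0.117. They also lost it without the 6 replicate 4 libraries (adjusted p = 0.0695 and 0.275) and with no filter (0.176 and 0.115). Without lot 11 the adjusted p was 0.122 and 0.0582. Rrm2b also lost its call without lot 8 (adjusted p = 0.346), and Ei24 with library totals (adjusted p = 0.0987). Mdm2 lost it without lot 6 (adjusted p = 0.345) and with library totals in place of TMM scaling (adjusted p = 0.0964), and Tigar without lot 8 (adjusted p = 0.204). P-values measure the spread between libraries of a line, which the labels do not describe as separate cultures and which may be technical.

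**Figure D1:**
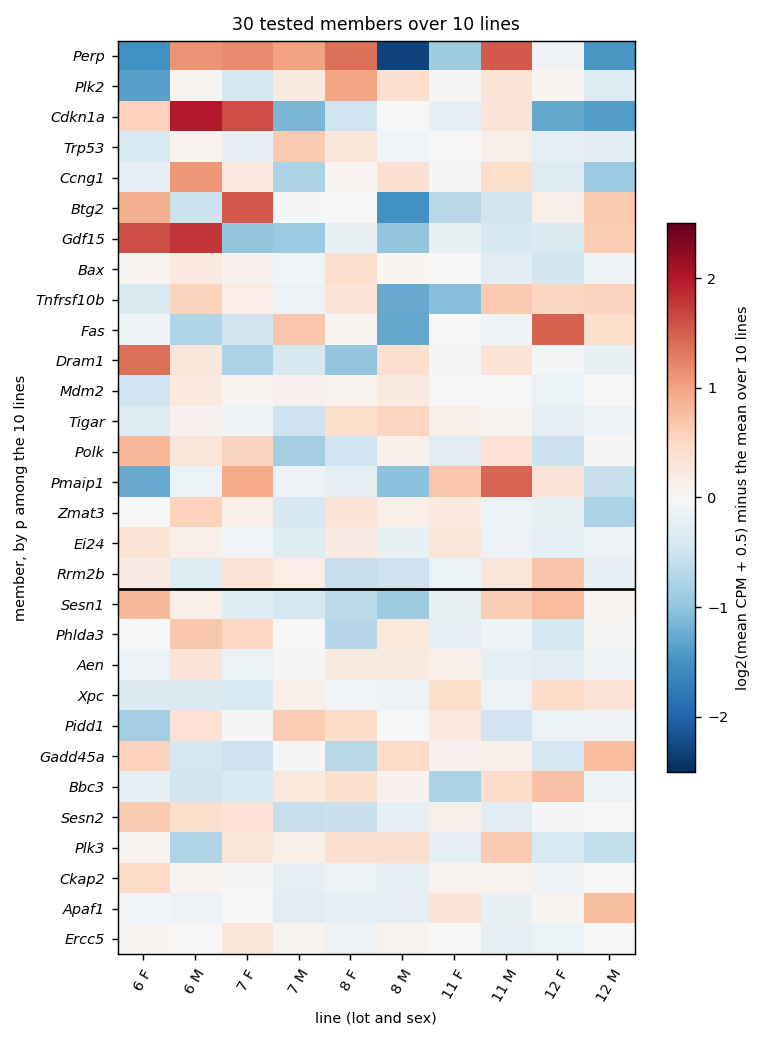
Rows are the 30 tested members, ordered by their p among the 10 lines, and columns are the lines by lot and sex (F female, M male). Colour gives the log2 of a line's mean CPM plus 0.5 minus the member's mean over the 10 lines, and the 18 members above the black line differed among lines, with Perp, Cdkn1a, Gdf15 and Btg2 showing the deepest colours and no column uniformly red or blue.

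The SD of the 10 line means was set against the pooled SD among libraries of a line, both in log2 CPM. This ratio was highest for Plk2 (2.46), Perp (2.34), Trp53 (1.99) and Cdkn1a (1.92). Tigar (1.01) and Polk (1.01) stood in the middle of the members, beside a median of 0.89 over all genes tested. At the other end, Apaf1, the scaffold of the apoptosome, had a ratio of 0.31, the repair endonuclease Ercc5 0.38 and the spindle protein Ckap2 0.49. Perp had the widest spread between lines among the members, with an SD of 1.57 on the log2 scale, against 0.35 for Trp53.

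**Figure D2:**
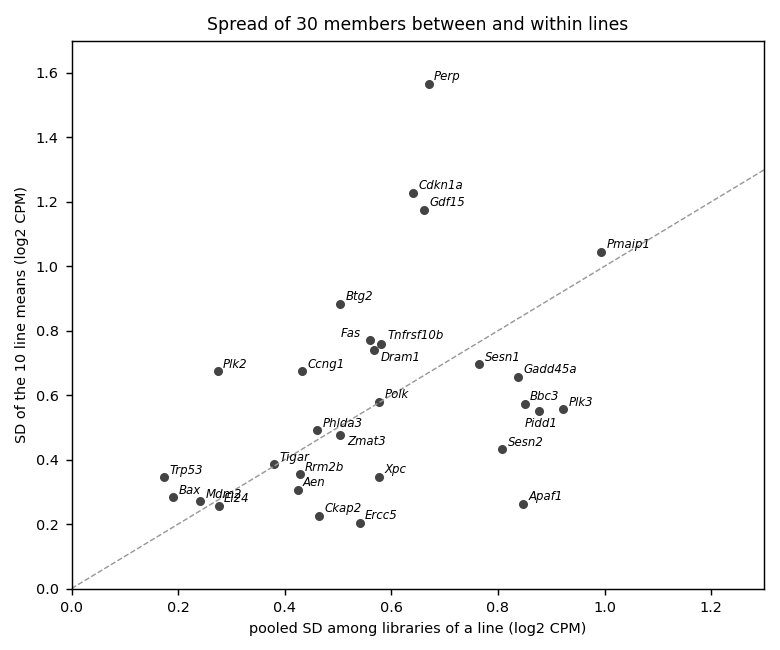
Each point is 1 of the 30 tested members, with the pooled SD among libraries of a line on the x axis and the SD of the 10 line means on the y axis, both in log2 CPM, and the dashed line marks equal spread. Perp (1.57), Cdkn1a (1.23) and Gdf15 (1.18) have the largest SD between lines, while Apaf1, Ercc5 and Ckap2 lie far below the line. Members below the dashed line can still differ among the lines, as Zmat3, Ei24 and Rrm2b did.

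Within each lot, the female and the male line were compared in 1 model of all 36 libraries. In lot 6, 8 of 30 members differed, where 27.6% of all genes did: 1 was higher in the female line (background 13.5%) and 7 were lower (background 14%). In lot 7, 7 members differed, 4 higher and 3 lower in the female line (background 10.8%, with 5.41% higher and 5.42% lower). In lot 8 there were 5, 4 higher and 1 lower (background 11.4%, with 6.41% higher and 4.99% lower). In lot 11 there were 2, both lower in the female line (background 4.33%, with 1.52% higher and 2.81% lower). In lot 12 edgeR called 0 members (background 3.8%, with 1.74% higher and 2.06% lower), with 3 at an unadjusted p under 0.05 and 0 by DESeq2. These tests did not pair the libraries. With the libraries of lot 12 paired by replicate number, Perp passed (adjusted p = 0.0201, edgeR). For lots 6, 7, 8, 11 and 12 in turn, the members' median log2 fold change, female over male, was -0.30, 0.12, -0.01, -0.12 and -0.11, beside 0.06, 0.01, 0.00, -0.01 and 0.01 over all genes.

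Several measures moved with these contrasts and their part in the results was not tested. In lot 6 the median fold change of well-counted genes (those averaging 4 or more in log2 CPM) was -0.64 on chromosome 10, -0.41 on chromosome 11 and -0.83 on chromosome 14, where 88.7%, 78.8% and 86.7% of genes were lower in the female line. Perp and Mdm2 lie on chromosome 10, Trp53 and Ccng1 on chromosome 11 and Tnfrsf10b on chromosome 14. The chromosomes of Plk2 (13), Cdkn1a (17) and Btg2 (1) had medians of -0.10, -0.01 and -0.08 in lot 6. Such shifts were not confined to lot 6. In lot 7 the median of chromosome 17 was 0.20, with 27.8% of genes lower in the female line. In lot 12 that of chromosome 10 was -0.36, with 89.5% lower. Smooth muscle markers summed to 19773 CPM in the female and 4901 CPM in the male line of lot 6, and fibroblast markers to 68.6 and 642 CPM. In lot 7 the same sums were 9698 and 1853 CPM, and 106 and 49.0 CPM. With library totals in place of TMM scaling, the median over all genes in lot 6 moved from 0.06 to 0.29. That scaling also raised the share of called genes that were higher in the female line by over 10 points in 4 lots: from 49% to 68.9% (lot 6), 50% to 60.2% (lot 7), 56.2% to 68.6% (lot 8) and 45.8% to 57.2% (lot 12). No call on a member changed its sign under any scaling.

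**Figure D3:**
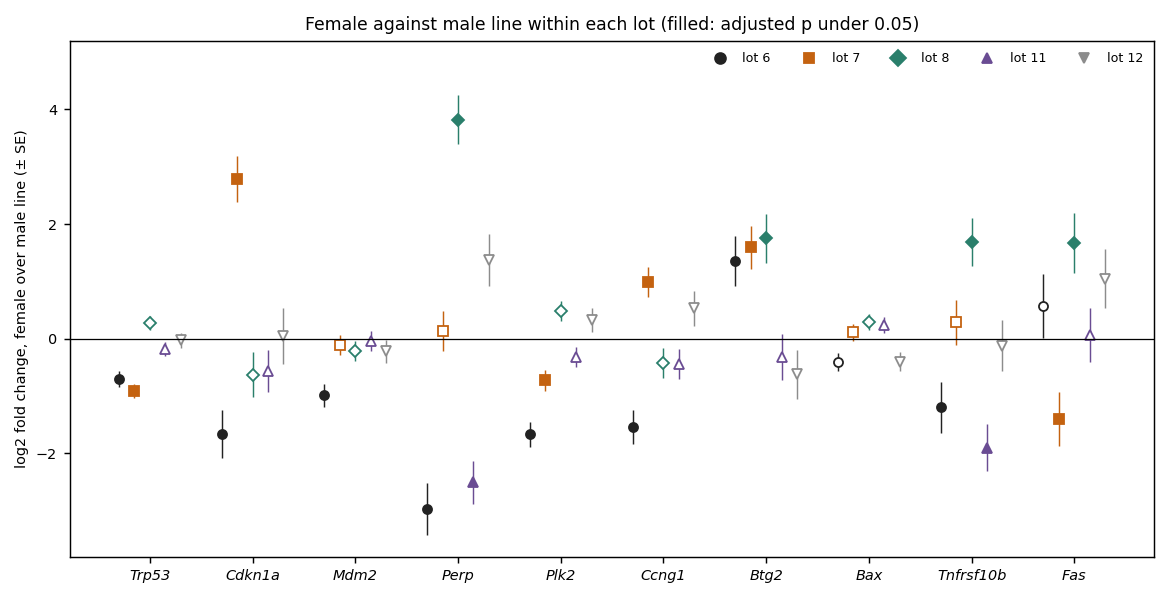
Log2 fold change of the female over the male line (± SE) within each of the 5 lots for 10 members, from the edgeR model of 36 libraries, with filled symbols where the adjusted p was under 0.05. Perp reaches 3.82 in lot 8 and -2.97 in lot 6, Cdkn1a 2.79 in lot 7 and -1.66 in lot 6, and Bax stays within 0.5 of 0 in each lot.

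Trp53 was read at 182, 194 and 200 CPM in the lot 6 female libraries and at 271, 271 and 256 CPM in the lot 6 male libraries. The groups did not overlap, and the female line was lower by edgeR (log2 fold change -0.70 ± 0.14 SE, adjusted p = 0.000176). In lot 7 the female libraries read 244, 243, 216 and 169 CPM and the male libraries 412, 474, 343 and 348 CPM. Each male library of lot 7 lay above every female library of the lot, and the lot 7 male line had the highest mean of the 10 lines (log2 fold change -0.92 ± 0.12 SE, adjusted p = 7.18e-07, edgeR). Lot 8 gave 0.27 ± 0.12 SE, lot 11 gave -0.18 ± 0.12 SE and lot 12 gave -0.03 ± 0.14 SE, and none of these passed the test. The lot 8 libraries did not overlap, with 272 to 371 CPM in the female and 226 to 251 CPM in the male line. Over the 10 lines the mean ranged from 192 ± 8.97 CPM (SD, n = 3) for the lot 6 female line to 394 ± 62.0 CPM (SD, n = 4) in the lot 7 male line, a 2.06-fold range. Near the low end, the lot 12 male line (206 ± 21.5 CPM, SD, n = 3) and the lot 12 female line (210 ± 9.91 CPM, SD, n = 3) differed by less than their spread.

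**Figure D4:**
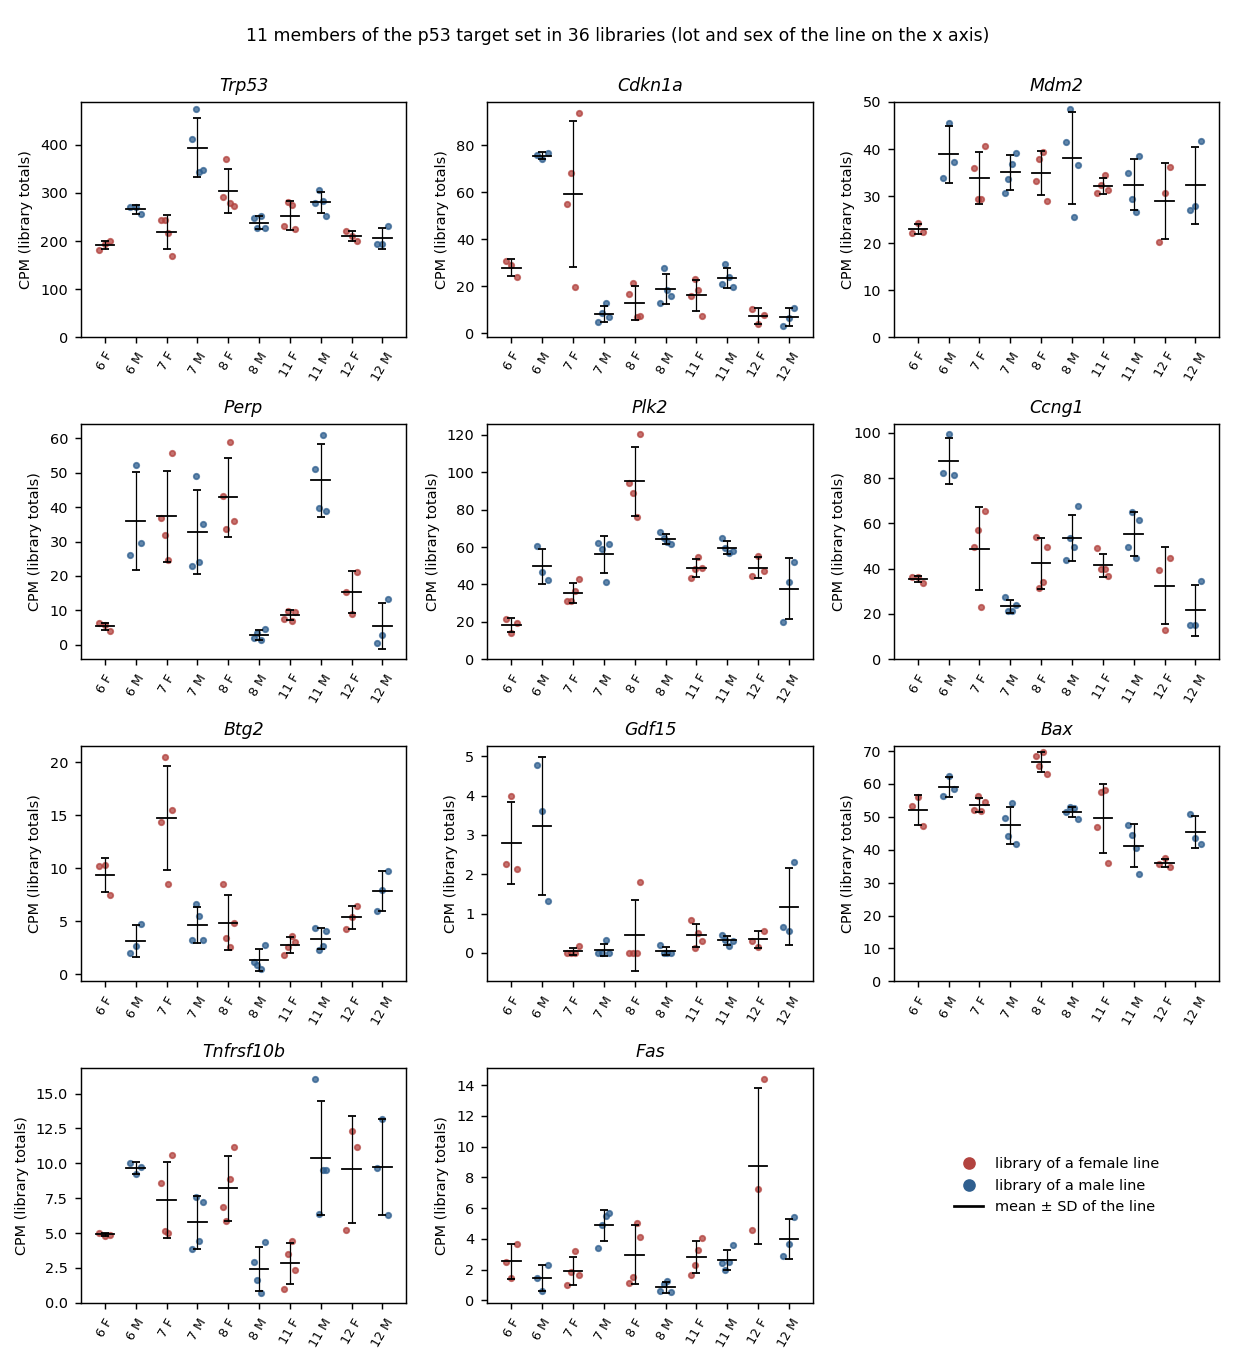
CPM from library totals in each of the 36 libraries for Trp53, Cdkn1a, Mdm2 and the 8 other members with the smallest p among the 10 lines; points are libraries (red female, blue male lines) and bars give the mean ± SD of a line. The Trp53 points of the lot 7 male line (343 to 474 CPM) lie above most others, the Cdkn1a points of the lot 6 male and most of the lot 7 female line lie above 50 CPM, and Gdf15 passes 2 CPM in most libraries of lot 6 and in 1 of lot 12.

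Among the members that act back on p53, Mdm2, the ubiquitin ligase that marks p53 for degradation, varied little. It was read at 22.2, 24.2 and 22.4 CPM in the lot 6 female and at 33.7, 45.6 and 37.2 CPM in the lot 6 male libraries. The lot 6 female libraries lay below all of the lot 6 male ones, and the difference passed the test (log2 fold change -0.99 ± 0.20 SE, adjusted p = 0.000272, edgeR). In the other 4 lots the fold change lay between -0.22 and -0.04 and passed in none. Outside lot 6 the line means ran from 29.0 to 38.1 CPM.

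Ccng1 encodes cyclin G1, which recruits a phosphatase that acts on Mdm2. It was read at 36.2, 36.2 and 33.7 CPM in the lot 6 female libraries against 82.3, 99.5 and 81.3 CPM in the lot 6 male ones, which did not overlap (log2 fold change -1.54 ± 0.30 SE, adjusted p = 0.000135, edgeR). In lot 7 the direction was the opposite: the female libraries read 49.6, 57.2, 23.1 and 65.5 CPM and the male libraries 27.3, 21.2, 21.3 and 24.1 CPM. One female library fell within the male range, and the difference passed (log2 fold change 0.99 ± 0.26 SE, adjusted p = 0.0108, edgeR) but did not without the 6 replicate 4 libraries (adjusted p = 0.116).

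Plk2, a polo-like kinase of centriole duplication and stress signalling, had the largest ratio of spread between to within lines. In lot 6 it was read at 21.4, 14.0 and 19.2 CPM in the female and at 60.4, 46.6 and 42.5 CPM in the male libraries, with no overlap (log2 fold change -1.67 ± 0.22 SE, adjusted p = 1.35e-07, edgeR). In lot 7 the values were 31.2, 31.3, 36.3 and 43.0 CPM in the female and 62.2, 58.7, 41.6 and 61.7 CPM in the male libraries. Only 1 male library lay within the female range (log2 fold change -0.73 ± 0.18 SE, adjusted p = 0.00561, edgeR). The highest mean was that of the lot 8 female line (95.1 ± 18.6 CPM, SD, n = 4), beside 64.3 ± 2.89 CPM (SD, n = 4) in the lot 8 male line, a difference that did not pass (adjusted p = 0.0721, edgeR).

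The related kinase Plk3 stayed between 1.11 and 3.77 CPM and did not pass among the lines. Zmat3, an RNA-binding protein, had its highest mean in the lot 6 male line (18.7 ± 3.38 CPM, SD, n = 3) and its lowest in the lot 12 male line (7.11 ± 5.42 CPM, SD, n = 3). Its call among the lines was lost without lot 6 (adjusted p = 0.101), without lot 12 (adjusted p = 0.0842) and with library totals (adjusted p = 0.0936). Phlda3, which restrains Akt signalling, lay between 0.46 and 2.00 CPM and did not pass.

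Of the members that stop the cell cycle, Cdkn1a, which encodes the cyclin-dependent kinase inhibitor p21, varied most. It was read at 30.8, 28.8 and 24.0 CPM in the lot 6 female and at 75.7, 74.2 and 76.8 CPM in the lot 6 male libraries. The male values were above all female ones and lay close together (log2 fold change -1.66 ± 0.42 SE, adjusted p = 0.0026, edgeR). In lot 7 the female libraries read 55.0, 68.3, 19.6 and 93.9 CPM and the male libraries 4.77, 8.60, 12.8 and 6.68 CPM. Every female library was above every male one, the reverse of lot 6, although 1 female library stood well below the other 3 (log2 fold change 2.79 ± 0.40 SE, adjusted p = 2.97e-06, edgeR). In lots 8, 11 and 12 the means lay between 6.76 and 23.5 CPM and no sex difference passed. The lines with the highest mean, lot 6 male, and the lowest, lot 12 male, differed 11.2-fold.

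Btg2, an antiproliferative protein that acts on mRNA deadenylation, was higher in the female line of 3 lots. In lot 6 the female libraries read 10.2, 10.4 and 7.48 CPM and the male libraries 1.98, 2.66 and 4.79 CPM (log2 fold change 1.35 ± 0.44 SE, adjusted p = 0.019, edgeR). In lot 7 the values were 14.4, 20.5, 8.54 and 15.5 CPM against 3.28, 6.67, 5.51 and 3.19 CPM (log2 fold change 1.59 ± 0.37 SE, adjusted p = 0.00333, edgeR). Neither pair of lines overlapped. In lot 8 the female libraries read 8.49, 3.46, 2.60 and 4.87 CPM and the male ones 1.18, 0.887, 0.542 and 2.80 CPM, which overlapped in 1 library of each line (log2 fold change 1.75 ± 0.43 SE, adjusted p = 0.00535, edgeR). In lots 11 and 12 the fold changes were -0.32 ± 0.40 SE and -0.62 ± 0.43 SE and did not pass. The call in lot 6 was lost when any of 4 of its libraries was left out, with adjusted p up to 0.104.

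The other arrest and stress genes did not pass among the lines. Gadd45a, which binds PCNA and stress kinases, lay between 0.52 and 2.32 CPM, and the antioxidant regulators Sesn1 and Sesn2 between 1.02 and 4.47 CPM and between 2.22 and 5.80 CPM. Ckap2 lay between 30.2 and 49.8 CPM, with the highest mean in the lot 6 female line.

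Among the members linked to cell death, Perp, a membrane protein of desmosomes that p53 induces in apoptosis, changed most. In lot 6 it was read at 6.21, 5.73 and 4.12 CPM in the female and at 26.2, 52.2 and 29.5 CPM in the male libraries (log2 fold change -2.97 ± 0.45 SE, adjusted p = 2.98e-06, edgeR). In lot 8 the female libraries read 43.1, 33.5, 58.8 and 35.9 CPM and the male libraries 1.96, 3.37, 1.26 and 4.73 CPM (log2 fold change 3.82 ± 0.43 SE, adjusted p = 3.17e-08, edgeR). In lot 11 the values were 7.59, 9.94, 7.04 and 9.60 CPM in the female and 51.2, 39.8, 61.1 and 38.9 CPM in the male libraries (log2 fold change -2.51 ± 0.38 SE, adjusted p = 1.36e-05, edgeR). In none of these 3 lots did the lines overlap, and the line with the high level was male in lots 6 and 11 and female in lot 8.

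In lot 7 both lines had a high level of Perp, 37.4 ± 13.2 CPM in the female and 32.8 ± 12.1 CPM in the male line (SD, n = 4 each). In lot 12 the female libraries read 15.5, 9.08 and 21.2 CPM and the male libraries 0.661, 2.94 and 13.2 CPM, so that the third male library lay within the female range. The difference in lot 12 did not pass (log2 fold change 1.38 ± 0.46 SE, adjusted p = 0.0878, edgeR). With the replicate number as a block, which pairs the libraries of lot 12, it was 1.66 and passed (adjusted p = 0.0201), and without lot 12 male replicate 3 it was 2.78 (adjusted p = 0.000376). The 10 line means spanned a 16.9-fold range, with 5 lines above 32 CPM and 5 below 16 CPM.

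Tnfrsf10b, the mouse death receptor for the ligand TRAIL, differed in the same 3 lots as Perp and in the same directions. In lot 6 it was read at 5.02, 4.78 and 4.88 CPM in the female and at 10.0, 9.22 and 9.73 CPM in the male libraries, without overlap (log2 fold change -1.20 ± 0.45 SE, adjusted p = 0.043, edgeR). That call did not hold with library totals (adjusted p = 0.104) or when any 1 library of the lot was left out. In lot 8 the values were 6.88, 5.84, 8.91 and 11.2 CPM against 2.94, 1.60, 0.722 and 4.38 CPM (log2 fold change 1.69 ± 0.42 SE, adjusted p = 0.00609, edgeR). In lot 11 they were 0.989, 3.49, 4.46 and 2.32 CPM against 16.1, 6.33, 9.52 and 9.49 CPM (log2 fold change -1.90 ± 0.41 SE, adjusted p = 0.00249, edgeR). Neither lot showed an overlap between the lines.

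Fas, the receptor for Fas ligand, was lower in the female line of lot 7, with 0.999, 1.85, 3.18 and 1.62 CPM against 3.43, 4.89, 5.51 and 5.66 CPM in the male libraries (log2 fold change -1.40 ± 0.47 SE, adjusted p = 0.0495, edgeR). It was higher in the female line of lot 8, with 1.15, 1.51, 5.01 and 4.14 CPM against 0.589, 1.06, 1.26 and 0.525 CPM (log2 fold change 1.67 ± 0.52 SE, adjusted p = 0.0296, edgeR). The lot 7 groups did not overlap and those of lot 8 did. Without the 6 replicate 4 libraries neither passed (adjusted p = 0.197 in lot 7 and 0.221 in lot 8), nor with no filter (adjusted p = 0.143 and 0.092). The lot 7 call was also lost with library totals (adjusted p = 0.0699), without lot 11 (0.0676) or lot 12 (0.0589), and under most omissions of 1 library (adjusted p up to 0.143), and that of lot 8 when any of 4 of its libraries was left out (adjusted p up to 0.147). The highest mean was 8.74 ± 5.08 CPM (SD, n = 3) for the lot 12 female line.

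Bax, the pore-forming protein of the mitochondrial pathway, differed among the lines over a narrow range, with the lowest mean in the lot 12 female line (35.96 ± 1.35 CPM, SD, n = 3) and the highest in the lot 8 female line (66.6 ± 3.07 CPM, SD, n = 4). The female libraries of lot 8 read 68.6, 65.4, 69.6 and 62.9 CPM and the male ones 51.4, 52.9, 52.6 and 49.4 CPM. These did not overlap, but the fold change of 0.29 ± 0.14 SE did not pass (adjusted p = 0.21, edgeR). Pmaip1, which encodes the BH3-only protein Noxa, ranged from 0.257 ± 0.317 CPM (SD, n = 3) for the lot 6 female line, below the floor, to 4.46 ± 0.878 CPM (SD, n = 4) in the lot 11 male line. The call of Pmaip1 among lines by edgeR was lost without the replicate 4 libraries (adjusted p = 0.109), without lot 11 (0.236) and without lot 6 (0.062). It was also lost without lot 11 male replicate 2 (adjusted p = 0.0504). Bbc3, the BH3-only protein Puma, lay between 0.547 and 2.52 CPM and did not pass.

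Dram1, a lysosomal protein of autophagy, was lower in the female line of lot 8, at 1.19 ± 0.643 CPM against 3.92 ± 1.35 CPM (SD, n = 4 each; log2 fold change -1.77 ± 0.51 SE, adjusted p = 0.0172, edgeR). It did not pass without the replicate 4 libraries (adjusted p = 0.0848), with no filter (adjusted p = 0.0523) or when any of 3 libraries of the lot was left out (adjusted p up to 0.0639). Its highest mean was 8.17 ± 1.40 CPM (SD, n = 3) for the lot 6 female line, and its call among the 10 lines was lost without lot 6 (adjusted p = 0.0566, edgeR). Ei24, an endoplasmic reticulum protein, lay between 12.7 and 20.2 CPM. The exonuclease Aen, the PIDDosome scaffold Pidd1 and Apaf1 did not pass, with line means of 12.8 to 19.3 CPM, 1.24 to 4.45 CPM and 1.29 to 3.13 CPM.

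In DNA repair and metabolism, Polk, a translesion DNA polymerase, was higher in the female line of lot 7. Its libraries read 3.60, 11.5, 7.03 and 13.3 CPM there against 1.49, 2.08, 3.31 and 5.23 CPM in the male line, which overlapped in part (log2 fold change 1.48 ± 0.42 SE, adjusted p = 0.0152, edgeR). The call was lost when any of 4 libraries of lot 7 was left out, with adjusted p up to 0.077. Rrm2b, the p53-induced subunit of ribonucleotide reductase, and Tigar, which lowers glycolytic flux, had line means of 4.26 to 11.0 CPM and 6.72 to 14.4 CPM. No sex difference of either passed in any lot; the smallest unadjusted p were those of Rrm2b in lot 12 (log2 fold change 0.90 ± 0.38 SE, adjusted p = 0.228, edgeR) and of Tigar in lot 6 (-0.69 ± 0.33 SE, adjusted p = 0.12, edgeR). The repair proteins Xpc and Ercc5 lay between 6.09 and 11.3 CPM and between 6.68 and 9.74 CPM and did not pass among lines.

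Gdf15, a secreted stress cytokine, was read at 2.25, 3.98 and 2.14 CPM in the lot 6 female and at 4.77, 3.59 and 1.31 CPM in the lot 6 male libraries. In the other 8 lines the mean was 1.18 ± 0.983 CPM (SD, n = 3) or less, and 12 of 36 libraries had no count. Both lines of lot 6 had a higher mean than the other 8, although 1 library of lot 8 and 1 of lot 12 reached 1.80 and 2.31 CPM, and Gdf15 differed among the 10 lines (adjusted p = 7.46e-05, edgeR). Ddb2, a damage recognition protein, lies opposite Acp2, which had 2397 counts. Plk3 and Ei24 also overlap a gene on the other strand, and the strand setting of the counting is not stated in the sources used here, so reads of such pairs may have been assigned to either.

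Whether the sex difference itself differed between lots was tested with 4 degrees of freedom in the same model. It did for 12 of 30 members, where 29.9% of all genes passed: Trp53, Cdkn1a, Mdm2, Ccng1, Perp, Plk2, Bax, Btg2, Polk, Tnfrsf10b, Fas and Dram1. The smallest adjusted p by edgeR was that of Perp (2.19e-11), followed by Plk2 (6.97e-07), Cdkn1a (1.25e-06) and Trp53 (4.47e-06). Cdkn1a, Ccng1, Perp, Tnfrsf10b and Fas each had a call in both directions. Mdm2 and Dram1 no longer passed without lot 6 (adjusted p = 0.933 and 0.306) or with no filter (0.0778 and 0.130), or when any of several libraries was left out (up to 0.174 and 0.0872). Mdm2 also lost this call with library totals (adjusted p = 0.183) and without lot 11 (0.0644), and Dram1 without lot 8 (0.299). Without the replicate 4 libraries, Dram1 and Fas did not pass (adjusted p = 0.0857 and 0.0925). The call was lost for Cdkn1a, Polk and Fas without lot 7 (adjusted p = 0.104, 0.365 and 0.333), and for Bax without lot 8 (adjusted p = 0.0577) or lot 6 (adjusted p = 0.101).

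For the sexes over all lots, counts were added up by line, and 5 female were compared with 5 male sums with lot as a block. By edgeR 0 of 29 members passed (background 0% of 12010 genes), with 0 members and 841 genes at an unadjusted p under 0.05. DESeq2 called 56 genes and limma voom 491, with 0 members in either. Btg2 had the largest fold change of the 29, 0.73 ± 0.42 SE (adjusted p = 0.711, edgeR), with the female line higher in 3 of 5 lots. Mdm2 was lower in the female line of 5 of 5 lots (log2 fold change -0.32 ± 0.16 SE, adjusted p = 0.695, edgeR). For Cdkn1a the log2 fold change was -0.13 ± 0.58 SE and for Perp -0.16 ± 1.05 SE.

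The members were then set against the level of Trp53 over the 10 line sums, which form 5 pairs that each share a lot. By edgeR 0 of 26 members tested had a slope that passed (background 0% of 10267 genes), with 1229 genes and 4 members at an unadjusted p under 0.05. DESeq2 called 87 genes and 0 members. The 4 members were Plk2, with a slope of 1.39 ± 0.52 SE log2 units per log2 unit of Trp53, Pidd1 (1.20 ± 0.46 SE), Sesn2 (-1.07 ± 0.43 SE) and Polk (-1.19 ± 0.51 SE), each with an adjusted p of 0.343 to 0.385. The slope of Cdkn1a was -0.76 ± 1.49 SE and that of Mdm2 0.44 ± 0.28 SE.

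As a correlation over the 10 lines, 14 of 26 members lay above 0, with a median Pearson r of 0.005 beside -0.08 over all genes. Plk2 had r = 0.65 and Spearman rho = 0.76 (permutation p = 0.0492 and 0.0147, adjusted over 10267 genes 0.463 and 0.311), and r = 0.78 without the lot 7 male and lot 6 female lines, which were farthest from the median Trp53 level. Pidd1 had r = 0.67 (permutation p = 0.0356, adjusted 0.445) and rho = 0.66 (permutation p = 0.0429, adjusted 0.339), with r = 0.26 without those lines. Sesn2 had r = -0.75 (permutation p = 0.0118, adjusted 0.43) and rho = -0.68 (permutation p = 0.0343, adjusted 0.334), with r = -0.47 without them. Polk had r = -0.66 (permutation p = 0.0358, adjusted 0.445) and rho = -0.48 (permutation p = 0.166, adjusted 0.512), with r = -0.14 without those lines. Leaving out those lines also narrows the range of Trp53, which can by itself bring r closer to 0. A weaker r without them therefore does not show that a relation rested on them. Cdkn1a had r = -0.17 and rho = 0.02 (permutation p = 0.647 and 0.973, adjusted 0.876 and 0.994). The line with the most Trp53, lot 7 male, had one of the lowest levels of Cdkn1a, 8.20 ± 3.41 CPM (SD, n = 4).

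**Figure D5:**
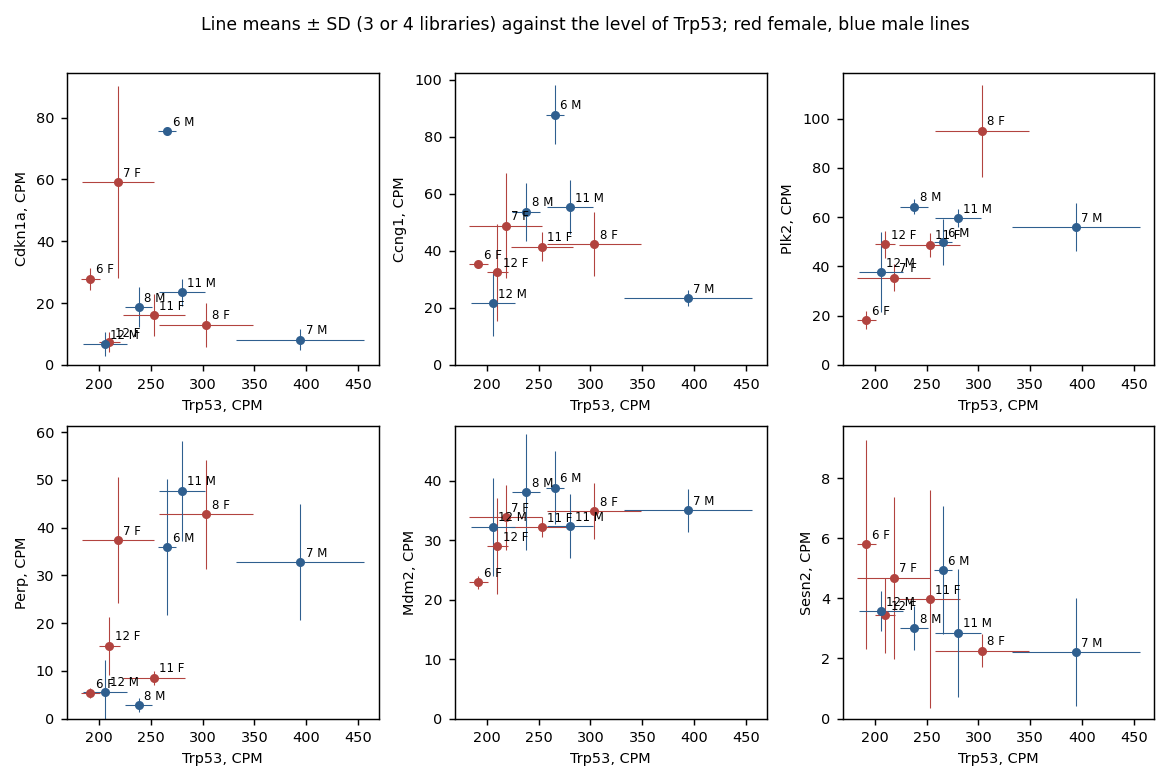
Mean CPM of 6 members (y axis) against mean CPM of Trp53 (x axis) in the 10 lines, labelled by lot and sex, with bars of ± SD over 3 or 4 libraries. Plk2 is lowest in the lot 6 female line (18.2 CPM), which also has the least Trp53 (192 CPM), while Cdkn1a is highest in the lot 6 male line (75.6 CPM) at a middle level of Trp53 (266 CPM).

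The members were also set against the level of Cdkn1a, which was chosen for this use after the values were seen. Ccng1 had r = 0.82 and rho = 0.79 with it over the 10 lines (permutation p = 0.00375 and 0.00912), r = 0.76 without the lot 6 male and lot 7 female lines, and the eighth highest r of 10267 genes. Zmat3 had r = 0.72 and Polk r = 0.70, while Xpc had r = -0.82 and Fas r = -0.70. By adjusted p, 0 genes passed (0.993 for each of these members), and 485 genes (4.72%) had an unadjusted p under 0.05.

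Other p53 biology was read in the same fits from 3 further lists, whose genes are not members. Of 21 tested regulators of p53, 5 differed among the 10 lines (background 51.8%), namely the ribosomal proteins Rpl5 and Rpl11, which bind Mdm2, the p53 phosphatase Ppm1d, the Mdm2 partner Daxx and the p53 kinase Hipk2. In lot 6, Rpl5 (log2 fold change -0.81 ± 0.12 SE) and Rpl11 (-0.46 ± 0.10 SE) were lower and Hipk2 (1.81 ± 0.67 SE) higher in the female line. These were 3 of 21 regulators (background 27.6%). In lot 7, 1 passed, Daxx, which was higher (0.57 ± 0.16 SE, background 10.8%). In lot 8, 1 passed, Rpl5, which was lower (-0.50 ± 0.11 SE, background 11.4%). By edgeR 0 regulators passed in lots 11 and 12 (background 4.33% and 3.8%), with 0 and 2 at an unadjusted p under 0.05. Cdkn2a, whose products include the Mdm2 inhibitor Arf, lay between 15.7 and 27.3 CPM, counted as a whole gene. Mdm4 lay between 4.51 and 8.05 CPM, and the p53 relatives Trp63 and Trp73 at no more than 0.99 CPM and at 0.

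Of 23 tested other p53-induced genes, 18 differed among the lines (background 51.8%). In the lot 6 female line 5 of them were higher and 6 lower (background 13.5% and 14%), among them the adenosine deaminase Ada (1.94 ± 0.26 SE) and the chemokine Cx3cl1 (1.83 ± 0.21 SE) on the higher side and Rps27l (-0.88 ± 0.11 SE) and Siva1 (-0.82 ± 0.15 SE) on the lower. In lot 7, 7 were higher, such as Thbs1 (0.98 ± 0.21 SE), and 2 lower, including Igfbp3 (-1.42 ± 0.36 SE), with a background of 5.41% and 5.42%. In lot 8 Cx3cl1 was higher (2.27 ± 0.19 SE) and Ada lower (-1.78 ± 0.24 SE), among 5 higher and 1 lower (background 6.41% and 4.99%). In lot 12, where 0 members passed without pairing of libraries, 5 were higher and 0 lower (background 1.74% and 2.06%), led by Ada (2.48 ± 0.27 SE) and Cx3cl1 (0.98 ± 0.20 SE). In lot 11 Igfbp3 was higher (1.97 ± 0.35 SE) and Sulf2 lower (-3.89 ± 1.05 SE), against a background of 1.52% and 2.81%.

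Of 18 cell cycle genes that p53 lowers through the p21 pathway, 8 differed among the lines (background 51.8%), led by Cdk1, Aurka and Ccna2. In lot 6, 5 of the 18 were higher in the female line (background 13.5%), Bub1 (0.96 ± 0.19 SE), Mki67 (1.20 ± 0.28 SE), Aurka (0.81 ± 0.25 SE), Cenpf and E2f1, and the median over the list was 0.32, beside 0.06 over all genes. In lot 7, 0 passed by edgeR (background 10.8%), with 3 at an unadjusted p under 0.05 and a median of -0.09, beside 0.01 over all genes. In lots 8, 11 and 12, 0 passed by edgeR, with 2, 2 and 1 at an unadjusted p under 0.05 (background 11.4%, 4.33% and 3.8%). Whether the list moved apart from other genes was not tested.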

How the data were processed

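The 36 libraries were BRB-seq of Nf1-/- DNp53 mouse astrocyte lines. The authors deposited 1 table of raw counts per Ensembl gene, per the labels. The tools listed are STAR 2.7.6a, Subread 2.0.2 and cutadapt 2.10, with GRCm38 as the build, per the submitters' processing notes. Whether molecular identifiers were collapsed is not given in the sources used here, so floors cover counting error only. Genes were matched to GENCODE release M21 of GRCm38, and 935 unmatched identifiers held 0.0295% of the counts. CPM used library totals, while tests used edgeR 4.0.16 (quasi-likelihood, TMM scaling, filterByExpr, Benjamini-Hochberg over all genes, threshold 0.05) in R 4.3.3, with DESeq2 1.42.0 and limma 3.58.1 as alternatives. The scripts were tested on simulated data. Fold changes are log2, female over male. Correlations used log2 CPM with a prior count of 2 and 100000 permutations.

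The members and lists were chosen with earlier results of these data known. All members are named; values in every library or line are given for Trp53, Cdkn1a, Mdm2 and the 8 other members with the smallest p among the 10 lines, and from other lists up to 3 genes in each direction by smallest p. Values of Polk and Dram1, outside this rule, are given for the lots in which they passed the test. Replicate numbers were checked for pairing by correlating deviations from line means between the sexes. In lot 12 the same-number correlations were 0.392 to 0.528 for 3 of 3 pairs, so the numbers were taken to pair its libraries, and the pairing comes from the data. In the other lots not every same-number pair passed 0.1: 1 of 3 did in lot 6, 3 of 4 in lots 7 and 11 and 1 of 4 in lot 8. Pairs of unlike number passed it in 2 of 6 cases in lot 6 and in 0 of 12 in lots 7, 8 and 11. In lot 11 the same-number correlations (0.0955 to 0.253) all lay above the others (at most 0.0806). Some pairing outside lot 12 is thus possible. The main tests within lots did not pair libraries, and the replicate block was the alternative.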

Additional observations from a re-analysis of the deposited data

Results flagged for a closer look

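In 5 groups of 4 libraries, Dixon's test marked 1 library as apart from the other 3, among 66 groups of a named member and a line that were checked. For values without ties, chance marks about 1 in 20 groups. Plk2 was lowest in lot 7 male replicate 3, at 41.6 CPM. Gdf15 had its highest library at 0.18 CPM in lot 7 female replicate 4, at 0.315 CPM in lot 7 male replicate 3, at 1.80 CPM in lot 8 female replicate 4 and at 0.196 CPM in lot 8 male replicate 1. In each of these 4 lines the other libraries had no Gdf15 count, and 3 of the 4 values lie under the floor of 3 counts. With the others all at 0, any count is marked, so the rate of 1 in 20 does not apply to these 4 groups.

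For 12 members the difference between the female and the male line differed between lots, by edgeR's test of that difference. The adjusted p was 4.47e-06 for Trp53, 1.25e-06 for Cdkn1a, 0.0389 for Mdm2, 4.80e-05 for Ccng1, 2.19e-11 for Perp and 6.97e-07 for Plk2. It was 0.0141 for Bax, 0.00156 for Btg2, 0.00856 for Polk, 8.77e-05 for Tnfrsf10b, 0.00732 for Fas and 0.0386 for Dram1. Each lot has 1 line of each sex, so lot, sex and line cannot be told apart in these differences.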

How the results depend on the processing

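Counts of members were recomputed under RLE scaling, library totals, no filter, a filter at a mean of 1 CPM, DESeq2, the replicate block, without each lot and, added after seeing the data, without the 6 replicate 4 libraries. Counts outside 1.5 times the first value were those of lot 8 with no filter and without the replicate 4 libraries (3 each, Perp, Btg2 and Tnfrsf10b) and of lot 12 with no filter and with the replicate block (1 each, Perp). The block changed no other count by over 1.5 times. With 1 library left out at a time, the counts ran from 6 to 9 in lot 6, 4 to 7 in lot 7 (4 without lot 7 female replicate 4), 3 to 6 in lot 8 (3 without lot 8 male replicate 4), 2 to 2 in lot 11, 0 to 1 in lot 12 (1 without lot 12 male replicate 3), 10 to 14 for the sex difference between lots, 15 to 19 among the 10 lines, and 0 to 0 across lots and against Trp53. Over all genes, the slope on Trp53 gave 12 genes without lot 7 and 9 with the TMM-scaled level of Trp53, and the sexes across lots 3 with no filter and 1 without the lot block. Results on single members, with or without a call at first, were recomputed 706 times under the other alternatives, with 49 calls lost and 2 gained, and 2160 times with 1 library left out, with 106 lost and 1 gained. The gains were those of Perp in lot 12, and 0 calls reversed. Of 110 line levels, 14 moved by over 1 SD with TMM-scaled sizes. Members under 3 CPM rest on few counts a library.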
